A study of Mus musculus with 6 samples.

Results

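The genes of the proteasome were followed in mouse gastrocnemius, a fast muscle of the calf, with and without the long non-coding RNA lnc-ORA. The rule took every row of the deposited gene table whose symbol starts with Psma, Psmb, Psmc or Psmd and a digit, and left out pseudogene symbols. It found 37 genes among the 11815 of the table. Of these, 33 encode subunits, 14 of the constitutive 20S core, 2 of the immunoproteasome and 17 of the 19S particle. The other members were 3 factors that help to assemble the 19S base (Psmd5, Psmd9 and Psmd10) and Psmc3ip, a partner of the meiotic recombinases that shares only the start of its symbol.

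The proteasome degrades proteins that carry ubiquitin chains. Its barrel, the 20S core, has outer rings of alpha subunits that gate the entry and inner rings of beta subunits, of which only some hold a catalytic site; the 19S particle caps the barrel, binds ubiquitin, removes it and unfolds the substrate with a ring of ATPases. In skeletal muscle this route breaks down much of the contractile protein, and during wasting the subunit genes are known to rise together. Interferon replaces the catalytic beta subunits with immunoproteasome forms, which immune cells carry at high levels.

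The study asked how loss of lnc-ORA affects muscle fibre type. RNA of gastrocnemius was sequenced from 3 wild-type libraries (WT replicates 2, 3 and 4) and 3 knockout libraries (KO replicates 1, 2 and 3). In the KO, made on the C57BL/6 background, Cas9 and a pair of guides injected into fertilized eggs had removed 5147 bp that hold the whole lnc-ORA transcript. The KO mice were 15 weeks old; neither the age of the WT mice nor whether each library is 1 animal is stated in the sources used here, so p-values measure the spread between these libraries.

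Values are RPKM (reads scaled to transcript length and library total), and library totals were 54370181 to 69693905 reads. The lowest member had 80 reads in its lowest library and the median member 2203 in its lowest. All 6 markers of muscle fibres were in the table and none was called; Myh4, the fastest myosin, was at 33937, 35804 and 31050 RPKM in WT and 41918, 40638 and 41478 in KO. The 10 most abundant genes took 44.4% to 48.3% of reads in WT and 50.2% to 53.9% in KO, and the median RPKM of tested genes was 3.64 to 4.11 in WT and 3.33 to 3.60 in KO. On log2(RPKM + 1), the median difference KO minus WT of all 7574 tested genes was -0.09, and it was 0.01 once the libraries were given equal medians. Each member is therefore read against that shift, and the level of lnc-ORA itself is not analysed here.

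Most proteasome genes had lower values in KO, and 12 passed the test. Of the 37 members, 35 had 1 RPKM or more in 3 or more libraries, the filter set here, and entered the limma test, with Benjamini-Hochberg adjustment over all tested genes. At adjusted p under 0.05, 12 were called lower and 0 higher, against 13.5% of all tested genes called lower and 3.83% called higher. The median log2 fold change of the tested members was -0.28, and 34 of 35 were below 0, as were 5122 of all 7574 tested genes, whose median was -0.09. In a bulk sample, fewer cells of a type and less RNA per cell cannot be told apart. In 22 of the 35 tested members every KO library was below every WT library, which held for 30.0% of all tested genes, and 22 members had an unadjusted p under 0.05 in the lower direction, against 25.8% of all tested genes.

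How many members were called depended on the scaling. With equal library medians, 7 members were called lower, against 9.33% of all tested genes, and the members' median was -0.15 with 30 of 35 below 0, against 3689 of the 7574 tested genes. With library totals counted without the 10 most abundant genes, 5 were called lower, against 8.09% of all tested genes. Over all tested genes the calls split into 290 higher and 1021 lower as deposited, 594 and 707 with equal medians, and 680 and 613 without the most abundant genes. Psma1, Psma5, Psma7, Psmd4 and Psmd11 were called under all 3 scalings, and Psmc2 and Psmd3 also with equal medians.

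Single libraries mattered as well. Leaving out WT replicate 2 gave 7 lower calls among the members (8.45% of all tested genes), leaving out WT replicate 3 gave 4 (5.34%), and leaving out WT replicate 4 gave 21 (15.6%). Leaving out KO replicate 1 gave 4 (5.08%), KO replicate 2 gave 3 (6.82%) and KO replicate 3 gave 3 (4.57%). Psma5, Psma7 and Psmd4 were called in each of these 6 fits. WT replicate 4 was the lowest WT library in 27 of the 35 tested members, against 44.4% of all tested genes. Psma1, Psma2, Psmb1, Psmc2 and Psmd3 lost their call in every such fit but the one without WT replicate 4. Psmc6 and Psmd11 kept it only without WT replicate 2 or 4, Psmb2 without WT replicate 2, WT replicate 4 or KO replicate 1, and Psmb3 without any 1 of the WT libraries.

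**Figure D1:**
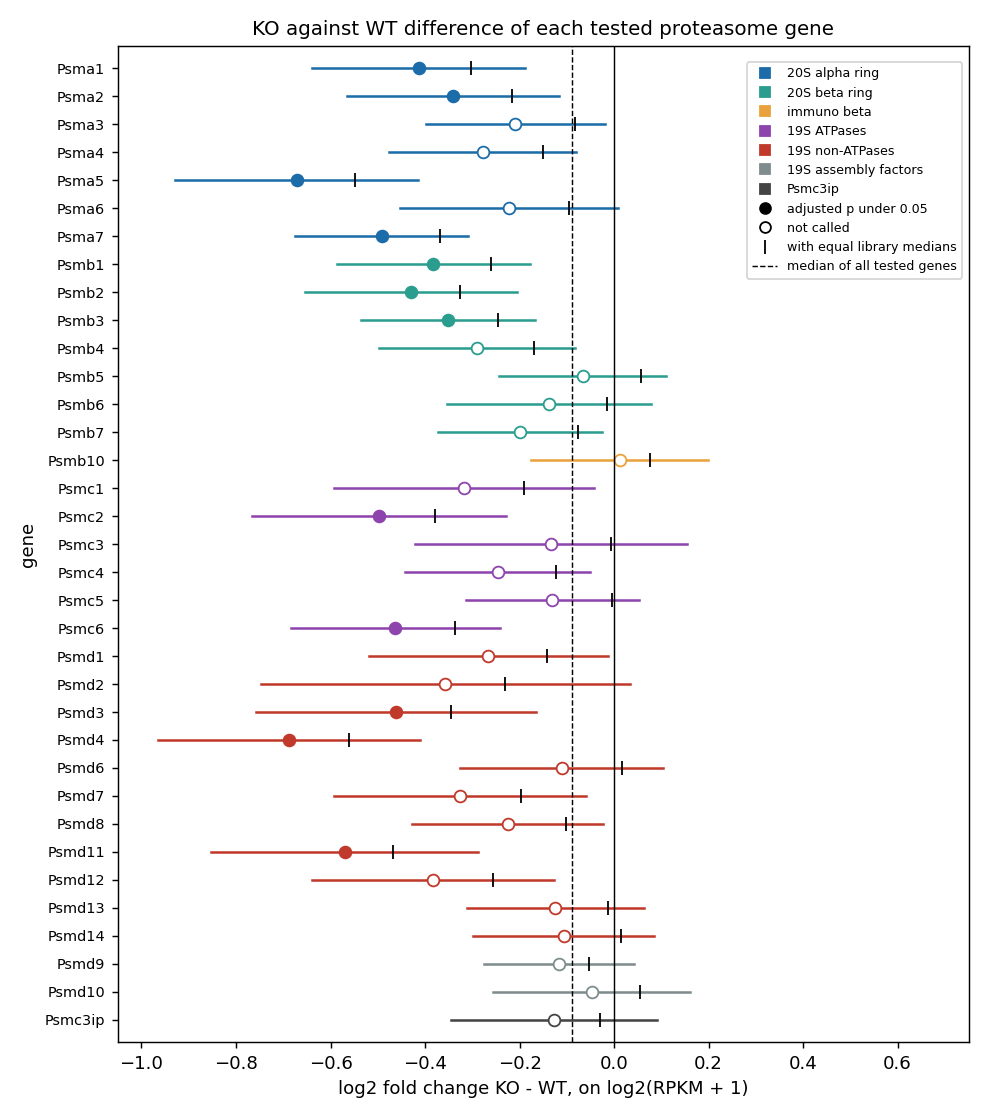
Log2 fold change KO minus WT on log2(RPKM + 1) for each of the 35 tested members, with the 95% confidence interval of the limma fit; filled points passed adjusted p 0.05, black ticks are the values with equal library medians and the dashed line is the median of all tested genes. The 12 filled points lie left of -0.3, Psmd4 and Psma5 farthest, and with equal medians Psmb5, Psmd6, Psmd10 and Psmd14 cross to the right of 0.

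**Figure D2:**
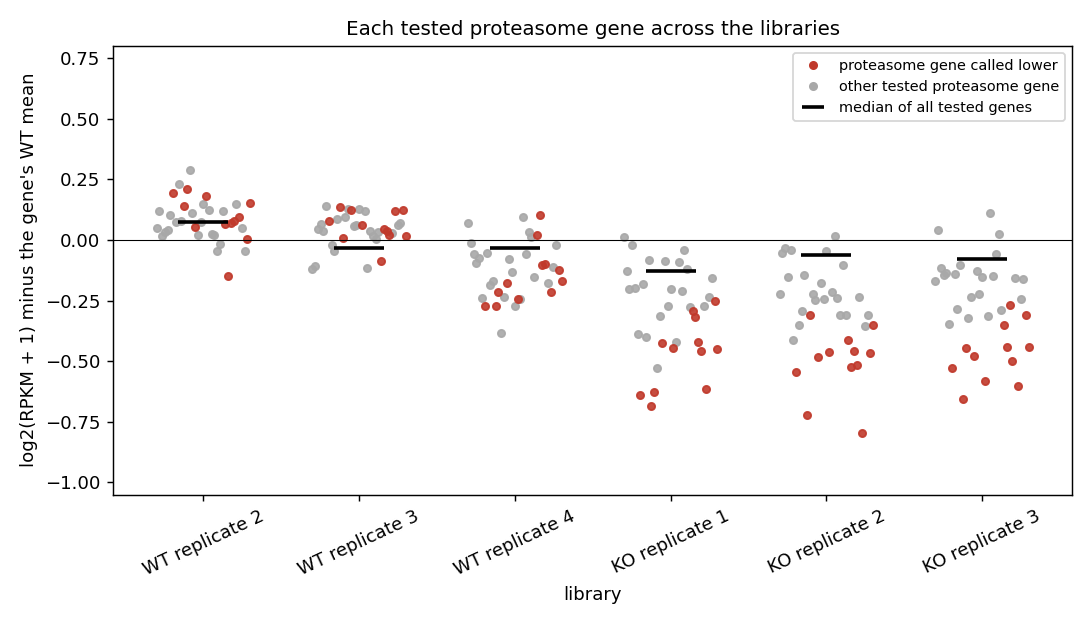
Log2(RPKM + 1) of each tested member minus its WT mean, 1 dot per gene and library; red dots are the 12 members called lower and black bars the median of all tested genes. The members' medians in KO are -0.27, -0.31 and -0.25, below the bars at -0.13, -0.06 and -0.08, and in WT replicate 4 they are at -0.12.

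The 3 members called in each of those 6 fits and under all 3 scalings were 1 subunit of the 19S base and 2 of the alpha ring. Psmd4, the 19S subunit that binds ubiquitin chains, was at 124, 124 and 93.0 RPKM in WT and 69.6, 67.9 and 71.0 RPKM in KO. The lowest WT library was still above every KO library. Its mean of 114 ± 17.8 RPKM in WT (SD, n = 3) and 69.5 ± 1.54 in KO left 61.2% of the WT level. On log2(RPKM + 1) it fell by 0.69 (SE 0.12, limma adjusted p = 0.00901), and with equal medians by 0.56 (limma adjusted p = 0.0163). Psmd4 lies on the minus strand of chr3:95032694-95042614 (GRCm38).

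Psma5, an alpha ring subunit, had 37.6, 38.2 and 30.1 RPKM in WT and 22.6, 19.8 and 22.8 RPKM in KO. The groups were again apart, with WT replicate 4 nearest to the KO libraries. It fell by 0.67 on the log2 scale (SE 0.11, limma adjusted p = 0.00784) and by 0.55 with equal medians (limma adjusted p = 0.0166). In its longest transcript, 55.4% of 50-base stretches also occur in other genes, chiefly Gm8394 and Gm12989, so its reads may be shared and its value is uncertain. Psma7, another alpha subunit, had no such shared stretch. It was at 25.6, 24.6 and 22.5 RPKM in WT and 17.3, 16.6 and 16.8 in KO, groups that did not overlap, and fell by 0.49 on the log2 scale (SE 0.08, limma adjusted p = 0.00721). With equal medians that fall was 0.37 (limma adjusted p = 0.0202).

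The promoters of 3 members are shown as examples of the motifs counted below. Psmd4 is among the members with the largest falls and has a CCAAT box, Psmc6 is the called member whose window holds the core of an antioxidant response element, the site through which Nfe2l1 acts on proteasome genes, and Psmb5 holds that core and was not called. The sequences are RefSeq windows of GRCm38.p6, up to 250 bases before the start, without bases that another annotated transcript of the gene covers. They are written 5′ to 3′ on the strand of the gene, with matches in capitals, on either strand, to TGACNNNGC (the core) and CCAAT. Psmd4 is chr3:95042615-95042864, minus strand; Psmc6 is chr14:45329574-45329787, plus strand; Psmb5 is chr14:54618023-54618245, minus strand.
Psmd4: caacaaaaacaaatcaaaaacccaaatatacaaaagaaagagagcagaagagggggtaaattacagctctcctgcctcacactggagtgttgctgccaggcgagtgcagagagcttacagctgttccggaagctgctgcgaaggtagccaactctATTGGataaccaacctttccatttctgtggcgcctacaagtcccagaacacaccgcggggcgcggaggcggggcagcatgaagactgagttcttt
Psmc6: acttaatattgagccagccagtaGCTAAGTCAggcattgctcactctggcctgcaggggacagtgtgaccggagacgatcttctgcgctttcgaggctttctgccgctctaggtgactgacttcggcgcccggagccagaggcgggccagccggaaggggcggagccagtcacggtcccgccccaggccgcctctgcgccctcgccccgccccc
Psmb5: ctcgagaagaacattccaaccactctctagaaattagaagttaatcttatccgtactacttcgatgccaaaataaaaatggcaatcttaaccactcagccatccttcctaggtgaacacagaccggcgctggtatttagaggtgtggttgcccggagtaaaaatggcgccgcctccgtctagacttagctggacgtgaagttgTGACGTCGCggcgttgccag

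A RefSeq window of 300 bases, 250 before and 50 after the start, was found for 31 members. The core TGACNNNGC was in 5 of them (16.1%): Psmb5, Psmb6, Psmc6, Psmd9 and Psmd12. It was in 17.8% of the 5350 tested genes with a window and in 13.99% of all 27025 genes with one. CCAAT was in 12 members (38.7%), against 42.2% of tested genes and 41.1% of all. Among members called lower, 6 of 9 with a window held CCAAT (66.7%) and 1 of 9 the core (11.1%). Among the others, which include Psmd9, Psmd10 and Psmc3ip, 6 of 22 held CCAAT (27.3%) and 4 of 22 the core (18.2%). No printed stretch holds both motifs. These are matches of letters only, and no test of the split was made.

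Alpha ring genes were called lower in 4 of 7 cases, against 13.5% of all tested genes, and had a median log2 fold change of -0.34. Psma1 was at 7.98, 7.18 and 6.20 RPKM in WT and 4.93, 5.34 and 4.96 RPKM in KO. It fell by 0.41 (limma adjusted p = 0.0260; 0.0358 with equal medians). Psma2 was at 36.2, 39.4 and 33.1 RPKM in WT and 30.2, 25.9 and 29.0 RPKM in KO. Its groups did not overlap, and it fell by 0.34 (limma adjusted p = 0.0476), but the call was lost with equal medians (limma adjusted p = 0.233). Psma4, with a mean of 110 ± 7.25 RPKM over the WT and 90.5 ± 4.10 over the KO libraries (SD, n = 3), Psma3 and Psma6 were not called. Their log2 fold changes were -0.28 (95% interval -0.48 to -0.08), -0.21 (-0.40 to -0.02) and -0.22 (-0.45 to 0.01).

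**Figure D3:**
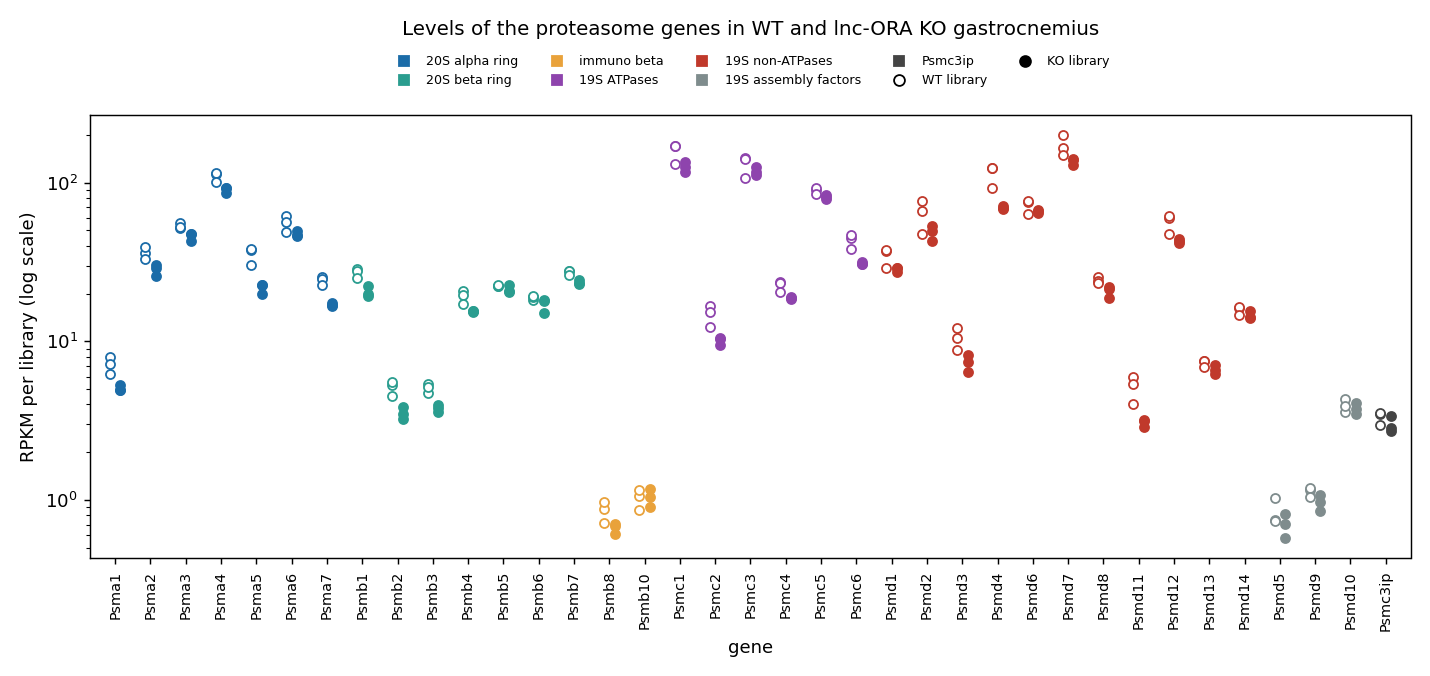
RPKM of all 37 members on a log axis, open circles for the 3 WT and filled circles for the 3 KO libraries, coloured by class. Psmd7 and Psmc1 stand at the top, the immunoproteasome genes Psmb8 and Psmb10 and the assembly factors Psmd5 and Psmd9 at or near 1 RPKM.

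Levels differed widely between subunits that the finished particle holds in equal numbers. In WT, mean RPKM ran from 7.12 (Psma1) to 110 (Psma4) in the alpha ring and from 5.09 (Psmb3) to 27.2 (Psmb7) among the constitutive beta subunits. Among the ATPases it ran from 14.8 (Psmc2) to 157 (Psmc1), and among the 19S non-ATPases from 5.12 (Psmd11) to 172 (Psmd7). The median WT level was 36.2 RPKM for alpha, 19.2 for beta, 66.3 for ATPase and 34.6 for non-ATPase genes. RPKM is per length, but the length is the one the deposited table used, and 8 members did not give whole reads at the annotated length, so levels between genes carry that uncertainty. Besides Psma5 and Psmb5, more than 10% of the 50-base stretches occur in other genes for Psma4 (31.5%), Psma3 (22.0%), Psmd2 (26.1%), Psmc1 (17.6%), Psmd13 (15.8%), Psmb3 (10.1%) and Psmc3ip (27.1%), whose reads may be shared.

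In the beta ring, the calls fell among subunits without a catalytic site. Of the 4 constitutive beta genes without a catalytic site, 3 were called lower (median -0.37), and of the 3 with one, 0 were called (median -0.14). Of all tested genes, 13.5% were called lower. The difference between beta genes with and without a catalytic site was not tested. Psmb1 was at 28.4, 27.8 and 25.1 RPKM in WT and 19.99, 19.4 and 22.3 RPKM in KO. Psmb2 was at 4.49, 5.27 and 5.54 RPKM in WT and 3.88, 3.23 and 3.48 RPKM in KO. Psmb3 was at 5.37, 4.73 and 5.17 RPKM in WT and 3.97, 3.57 and 3.78 RPKM in KO. Every KO library was below every WT library for each of these structural subunits. They fell by 0.38, 0.43 and 0.35 on the log2 scale, with limma adjusted p of 0.0242, 0.0225 and 0.0227. With equal medians the limma adjusted p rose to 0.0855, 0.102 and 0.0691, so none of the 3 was called. Psmb4, also without a catalytic site, stood at 80.5% of its WT level and was not called (log2 fold change -0.29, 95% interval -0.50 to -0.08, limma adjusted p = 0.0611).

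The catalytic genes stayed nearer to the WT level. Psmb5, the chymotrypsin-like site and the main target of proteasome inhibitors, was at 22.2, 22.5 and 22.6 RPKM in WT and 20.6, 20.8 and 22.8 RPKM in KO. Psmb6, the caspase-like site, was at 18.2, 19.1 and 19.3 RPKM in WT and 18.3, 15.1 and 18.1 RPKM in KO. Psmb7, the trypsin-like site, was at 27.6, 27.9 and 26.1 RPKM in WT and 23.4, 22.9 and 24.5 RPKM in KO. Groups overlapped for Psmb5 and Psmb6 and not for Psmb7. The log2 fold change of Psmb5 was -0.07 (95% interval -0.24 to 0.11, limma adjusted p = 0.581), but 0.06 with equal medians. That of Psmb6 was -0.14 (-0.35 to 0.08, limma adjusted p = 0.341), -0.02 with equal medians and 0.0050 without the most abundant genes. That of Psmb7 was -0.20 (-0.37 to -0.03, limma adjusted p = 0.106). For Psmb5, 57.1% of 50-base stretches occur in other genes (Gm3375, Psmb5-ps and Mir686), so reads may be shared there.

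**Figure D4:**
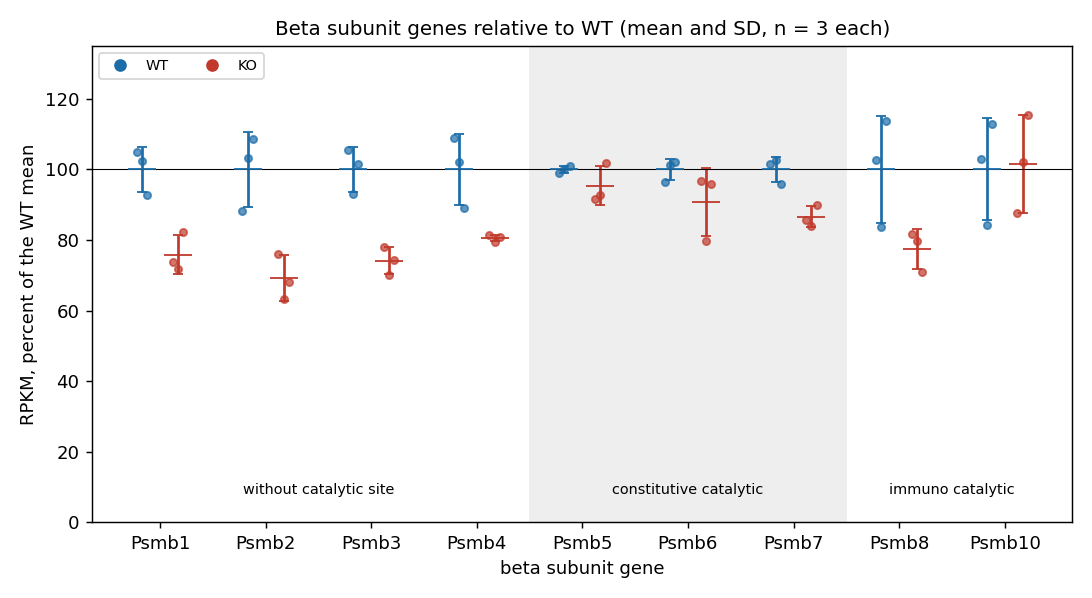
RPKM of the beta subunit genes as percent of the WT mean, 1 dot per library, with the mean and SD of 3 libraries per genotype. The KO means of Psmb1 to Psmb4 are 69.2% to 80.5% of WT, those of Psmb5, Psmb6 and Psmb7 86.6% to 95.4%, and that of Psmb10 102%.

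Immunoproteasome genes were scarce in both genotypes, and Psmb9 is not analysed here. Psmb8, the inducible counterpart of Psmb5, was at 0.881, 0.719 and 0.976 RPKM in WT and 0.702, 0.684 and 0.610 RPKM in KO. It stayed below the filter and was not tested; the groups did not overlap, on 102 to 175 reads per library, and an antisense gene, Gm20496, covers 14.7% of its exons, with strand handling not given. Psmb10, the inducible counterpart of Psmb7, was at 1.05, 0.863 and 1.15 RPKM in WT and 0.896, 1.04 and 1.18 RPKM in KO. These groups overlapped, and its log2 fold change was 0.01 (95% interval -0.18 to 0.20, limma adjusted p = 0.936). Without WT replicate 3 it was -0.05 and without KO replicate 3 -0.04, so no direction is given.

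The inducible form was a few percent of its constitutive counterpart. The ratio of Psmb8 to Psmb5 was 0.0397, 0.0320 and 0.0432 in WT and 0.0341, 0.0328 and 0.0267 in KO. The ratio of Psmb10 to Psmb7 was 0.0381, 0.0309 and 0.0442 in WT and 0.0383, 0.0456 and 0.0482 in KO. Both sets overlapped between genotypes, and a two-sided exact permutation test gave p = 0.3 and p = 0.2, each 0.3 after adjustment over the 2 ratios, where 3 against 3 libraries allow no p below 0.1. Of 18 immune cell markers, 8 were in the table, with a summed level of 7.84 to 20.7 RPKM in WT and 29.3 to 33.3 in KO. Without Ighm, left out after its values were seen, the sums were 5.17 to 16.1 RPKM in WT and 11.7 to 16.8 in KO, which overlap. Among the 5 tested, 1 was called, Ighm, higher in KO, against 3.83% of all tested genes called higher. Of these 5, 0 had a log2 fold change below 0, and their median was 0.56. The defining macrophage and T cell markers Cd68, Adgre1 and Cd3e are not analysed here. Of 16 interferon and antigen presentation genes, 14 were in the table and 9 tested, with sums of 51.1 to 62.3 RPKM in WT and 50.4 to 54.0 in KO. H2-Q4 was called lower (2.39, 2.66 and 2.59 RPKM in WT, 1.47, 1.57 and 1.51 in KO; log2 fold change -0.49, limma adjusted p = 0.00474). The other 8 tested genes of that list were not called, while 13.5% of all tested genes were called lower. Of the 9, 6 had a log2 fold change below 0, and 4 with equal medians. Ifit3 was then called higher (log2 fold change 0.27, limma adjusted p = 0.0318). The part of immune cells in the proteasome values was not tested.

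Among the 6 ATPases of the 19S ring, Psmc2 and Psmc6 were called lower, against 13.5% of all tested genes. Psmc2 was at 16.7, 15.3 and 12.2 RPKM in WT and 10.5, 10.3 and 9.45 RPKM in KO. It fell by 0.50 on the log2 scale (SE 0.12, limma adjusted p = 0.0253; 0.0430 with equal medians and 0.0536 without the most abundant genes). Psmc6, whose promoter is printed above, was at 44.8, 47.1 and 37.9 RPKM in WT and 31.8, 30.5 and 30.6 RPKM in KO. Its groups did not overlap, and it fell by 0.46 (SE 0.10, limma adjusted p = 0.0167; 0.0596 with equal medians). The other ATPases were not called. Psmc1, the most abundant of the ring, had a mean of 157 ± 22.0 RPKM over the WT and 126 ± 9.05 over the KO libraries (SD, n = 3), with a log2 fold change of -0.32 (95% interval -0.59 to -0.04). Psmc4 had -0.25 (-0.44 to -0.05). Psmc3 and Psmc5 each had -0.13 (-0.42 to 0.15 and -0.31 to 0.05), and both turned to 0.02 when totals left out the most abundant genes.

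Against 13.5% of all tested genes, 3 of 11 genes were called lower in the rest of the 19S particle. Besides Psmd4, these were Psmd3 and Psmd11, both scaffold subunits of the lid. Psmd11, a subunit known in human stem cells and worms to favour the assembled particle, was at 5.94, 5.40 and 4.03 RPKM in WT and 2.90, 3.16 and 3.21 RPKM in KO. Its groups did not overlap, and its mean in KO was 60.3% of WT. It fell by 0.57 (SE 0.12, limma adjusted p = 0.0192; 0.0190 with equal medians). Psmd3 was at 12.2, 10.5 and 8.82 RPKM in WT and 6.38, 8.21 and 7.38 RPKM in KO. It fell by 0.46 (SE 0.13, limma adjusted p = 0.0448; 0.0495 with equal medians and 0.0695 without the most abundant genes).

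Psmd12, another lid scaffold, was just outside the threshold. It was at 60.3, 62.0 and 47.4 RPKM in WT and 42.6, 42.0 and 43.9 RPKM in KO, groups that did not overlap, with a log2 fold change of -0.38 (limma adjusted p = 0.0503). Psmd2, the large base subunit that docks ubiquitin shuttles, spread widely within WT, at 76.2, 66.6 and 47.5 RPKM, against 42.8, 53.2 and 49.6 RPKM in KO. Its groups overlapped, and its log2 fold change was -0.36 (95% interval -0.75 to 0.03, limma adjusted p = 0.182). Psmd1, its partner in the base, had -0.27 (95% interval -0.52 to -0.01), Psmd7 -0.33 (-0.59 to -0.06) and Psmd8 -0.23 (-0.43 to -0.02), none of them called. Psmd7 pairs with Psmd14, the enzyme that cuts ubiquitin chains off the substrate. Psmd14 had a mean of 15.8 ± 0.967 RPKM over the WT and 14.6 ± 0.812 over the KO libraries (SD, n = 3), with a log2 fold change of -0.11 (95% interval -0.30 to 0.09), which was 0.01 with equal medians. Psmd6 had -0.11 (-0.33 to 0.10), 0.02 with equal medians, and Psmd13 had -0.12 (-0.31 to 0.06), 0.01 without the most abundant genes.

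The assembly factors were not called. Psmd10, which chaperones an ATPase of the base, had a mean of 3.94 ± 0.397 RPKM over the WT and 3.77 ± 0.279 over the KO libraries (SD, n = 3), with a log2 fold change of -0.05 (95% interval -0.26 to 0.16), 0.06 with equal medians. Psmd9 had -0.12 (-0.27 to 0.04) at 1.13 ± 0.0764 RPKM in WT. A gene on the opposite strand, Gm26745, covers 25.5% of the exons of Psmd9, with strand handling not given. Psmd5, with a mean of 0.840 ± 0.168 RPKM over the WT and 0.701 ± 0.120 over the KO libraries, was below the filter. Psmc3ip, not a proteasome gene, had -0.13 (-0.35 to 0.09, limma adjusted p = 0.379).

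The core and the cap had close medians. The 14 constitutive 20S genes had 7 called lower and a median log2 fold change of -0.32. The 17 genes of the 19S particle had 5 called lower and a median of -0.32. Of all tested genes, 13.5% were called lower. With equal medians the calls were 3 in the core and 4 in the cap, against 9.33% of all tested genes. The difference between core and cap was not tested.

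In the authors' deposited table, 0 members passed an FDR of 0.05, against 0.906% of all genes called lower; the lowest FDR there was 0.0973, for Psma5 with a log2 fold change of -0.44. At p under 0.05 in the authors' deposited table, 8 members were lower and 0 higher, against 12.2% of all genes lower. These were Psma1, Psma5, Psma7, Psmb2, Psmc2, Psmc6, Psmd4 and Psmd11. The authors' deposited table gave a negative log2 fold change to 29 of 37 members, with a median of -0.14. Over all genes of that table the median was -0.0043.

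Genes that feed or assist the proteasome were also lower in KO where they were called. Of 42 names on a list of activators, chaperones, ubiquitin genes, receptors and regulators, 37 were in the table and 33 were tested; 9 were called lower and 0 higher, against the same 13.5% and 3.83% of all tested genes, and the median log2 fold change was -0.20. With equal medians 6 were called lower, against 9.33% of all tested genes. The companions' median was then -0.08, with 21 of 33 below 0, against 3689 of the 7574 tested genes. With totals without the 10 most abundant genes 6 were called lower, against 8.09% of all tested genes. Akirin2, which carries proteasomes into the nucleus, was at 10.6, 9.88 and 8.17 RPKM in WT and 4.50, 4.74 and 5.19 RPKM in KO. It fell by 0.86 on the log2 scale (limma adjusted p = 0.00284). Ddi2, the protease that releases active Nfe2l1, was at 10.4, 8.50 and 6.71 RPKM in WT and 3.42, 4.30 and 4.39 RPKM in KO. It fell by 0.91 (limma adjusted p = 0.00744). Every KO library was below every WT library for both, and the KO means were 47.4% (Ddi2) and 50.3% (Akirin2) of WT, below the 60.3% of Psmd11, the lowest of the members.

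Zfand5, a proteasome activator known from wasting mouse muscle, was at 25.1, 21.8 and 18.7 RPKM in WT and 11.8, 12.1 and 12.8 RPKM in KO and fell by 0.78 (limma adjusted p = 0.00507). Txnl1, a thioredoxin-like protein bound to the 19S particle, fell by 0.64 (limma adjusted p = 0.00744). Ubb, a gene that encodes ubiquitin, was at 665, 602 and 499 RPKM in WT and 382, 382 and 394 RPKM in KO and fell by 0.60 (limma adjusted p = 0.0127). Zfand2a, a stress-induced relative of Zfand5, fell by 0.38 (limma adjusted p = 0.0184). Zfand2a was at 1.74, 1.60 and 1.28 RPKM in WT and 0.910, 0.982 and 0.946 RPKM in KO. It passed the filter only through the WT libraries, where it was higher, so its call, though counted above, carries no weight. The ubiquitin receptor Adrm1, the shuttle Rad23b and the unfolding ATPase Vcp were called as deposited but not with equal medians, where limma adjusted p was 0.0905, 0.0624 and 0.154. The count of called companions was 5 without WT replicate 2 (8.45% of all tested genes called lower) or KO replicate 2 (6.82%). It was 4 without WT replicate 3 (5.34%), KO replicate 1 (5.08%) or KO replicate 3 (4.57%), and 13 without WT replicate 4 (15.6%). Akirin2, Ddi2, Txnl1 and Zfand5 were called in all 6 of these fits. Ubb lost its call without WT replicate 3, KO replicate 1 or KO replicate 3, and Zfand2a without any 1 of the KO libraries; without a WT library Zfand2a was below the filter. Adrm1, Rad23b and Vcp kept theirs only without WT replicate 4.

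**Figure D5:**
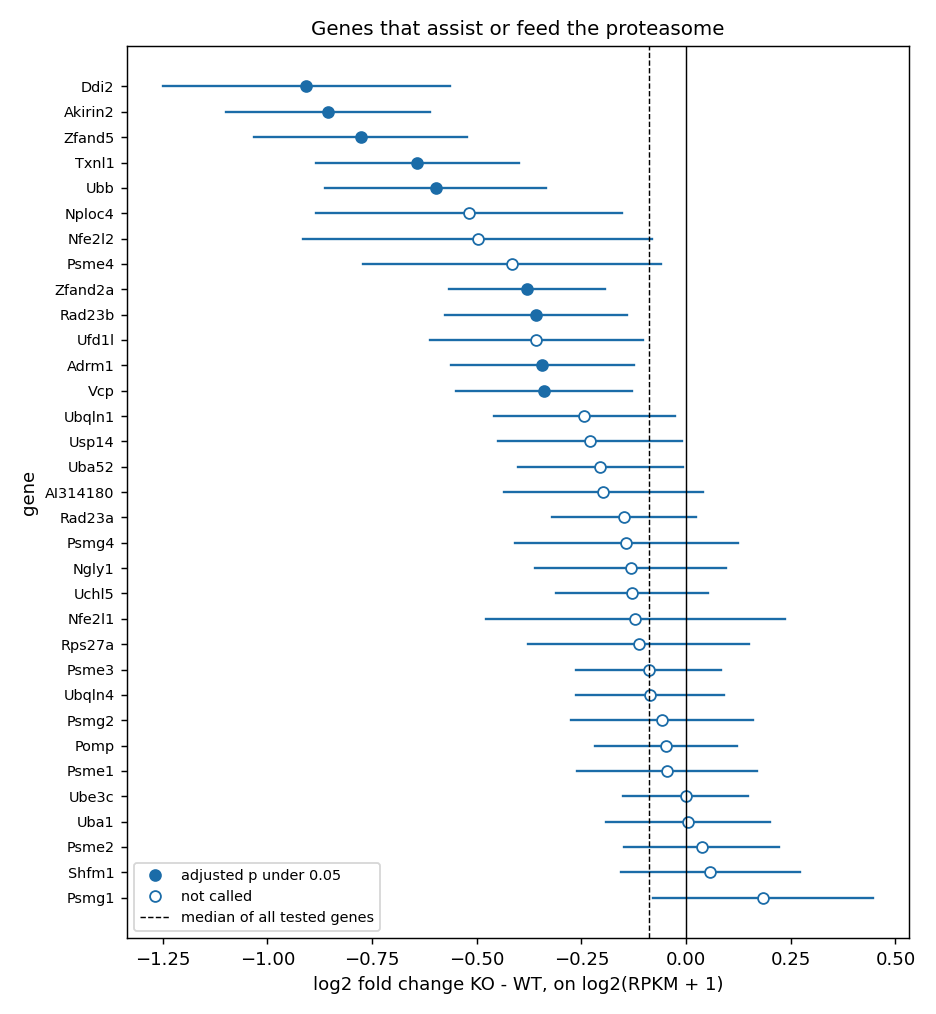
Log2 fold change KO minus WT on log2(RPKM + 1) with the 95% confidence interval of the limma fit for the 33 tested genes that feed or assist the proteasome; filled points passed adjusted p 0.05 and the dashed line is the median of all tested genes. Ddi2 and Akirin2 stand farthest left and the 9 filled points are all below 0.

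The other 24 tested companions did not pass, and 4 in the table were below the filter. Nploc4, a cofactor of Vcp, and Nfe2l2, a relative of Nfe2l1, are named after their values were seen. In both, every KO library was below every WT library, with log2 fold changes of -0.52 (95% interval -0.88 to -0.15, limma adjusted p = 0.0595) and -0.50 (-0.92 to -0.08, limma adjusted p = 0.0964). Nfe2l1, the transcription factor that drives the subunit genes when proteasome activity drops, was at 108, 87.1 and 75.1 RPKM in WT and 69.9, 94.1 and 83.6 RPKM in KO. Its groups overlapped, and its log2 fold change was -0.12 (95% interval -0.48 to 0.24, limma adjusted p = 0.617), turning to above 0 under both other scalings. Pomp, an assembly factor of the 20S core, had -0.05 (-0.22 to 0.12), and the activator subunits Psme1 and Psme2 had -0.04 (-0.26 to 0.17) and 0.04 (-0.15 to 0.22); Pomp and Psme1 were above 0 under both other scalings. Psme4, an ATP-independent activator, had -0.42 (-0.77 to -0.06, limma adjusted p = 0.101). Endothelial markers, 8 of 8 tested, summed to 24.9 to 37.5 RPKM in WT and 21.8 to 23.8 in KO. Their part in the proteasome values was not tested. Of these markers 1 was called lower (Cldn5), against 13.5% of all tested genes. Cldn5 was at 3.71, 2.16 and 1.83 RPKM in WT and 0.741, 0.687 and 0.706 in KO. It passed the filter only through the WT libraries, where it was higher, so its call carries no weight.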

How the data were processed

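Gastrocnemius RNA was fragmented and copied with random hexamers, per the labels' protocols, and the submitters' processing notes name GRCm39. The sources used here name no aligner, counting program or annotation, nor how strand was treated. The authors deposited 1 table of 11815 genes with a value per library, whose header names no unit. The authors made these RPKM values before they were deposited by scaling reads to gene length and library total, as inferred from the values. With 1 library total per column, 80.4% of genes with an annotated length gave whole reads (within 0.02) at that length. The share was 99.975% of all genes once a length that gave whole reads was searched for each other gene, so that share is partly fitted. The log2 fold change and log2 CPM, the F score, the p-value and the FDR are the authors' own, per the file headers. All value columns were mapped, and genotype and replicate number came from the titles.

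From these values, limma 3.58.1 (R 4.3.3) with a mean-variance trend was fitted to log2(RPKM + 1) for the 7574 genes with 1 RPKM or more in 3 or more libraries, genotype being the only term. Adjusted p under 0.05 was called. The pseudocount understates changes of low genes. Tables and plots used Python 3.11.15, pandas 2.3.3, numpy 2.4.6 and matplotlib 3.10.9. The script was tested on simulated data. Every gene that matched the rule was named, with full values for called genes and for immunoproteasome genes and their counterparts; of the companion list, called genes and Psme1, Psme2, Psme4, Pomp and Nfe2l1 were named; its other uncalled genes are given as counts or by the plot, with Nploc4 and Nfe2l2 named after their values were seen, and 1 further gene is left out of the list and not reported here. The members and the lists were chosen with earlier results of these data known. Gene coordinates and shared 50-base stretches come from GENCODE M21 (GRCm38), not the submitters' build, and promoters from RefSeq. Alternatives were another pseudocount, no filter, 2 scalings, a replicate block, each library left out, and limma-voom on recovered reads.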

Additional observations from a re-analysis of the deposited data

How the results depend on the processing

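The count of 12 members called lower was 7 with equal library medians and 5 with totals without the 10 most abundant genes, and ran from 3 to 21 when 1 library was left out. For the companion genes the count of 9 became 6 under either scaling and ran from 4 to 13 when 1 library was left out. The share of all tested genes called lower moved as well, from 13.5% to 9.33% and 8.09% under these scalings. It ran from 4.57% to 15.6% when 1 library was left out. No member or companion was called higher under any alternative run. With another pseudocount, no filter, or limma-voom on recovered reads, the count of members was 13, 12 and 12. Over all tested genes, 1029 of 7574, 1469 of 11815 and 1086 of 7573 were called lower in these runs. The other pseudocount gained Psmd12, and limma-voom shared 11 calls with limma on log2(RPKM + 1), losing Psma2 and gaining Psmd12.

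Log2 fold changes of uncalled members crossed 0 as follows. With equal medians they were 0.057 for Psmb5, 0.055 for Psmd10, 0.014 for Psmd14 and 0.016 for Psmd6. Without the most abundant genes they were 0.077 for Psmb5, 0.0050 for Psmb6, 0.015 for Psmc3, 0.017 for Psmc5, 0.072 for Psmd10, 0.0059 for Psmd13, 0.034 for Psmd14 and 0.037 for Psmd6. With 1 library left out, Psmd10 ran from -0.10 (without WT replicate 3) to 0.013 (without WT replicate 2). Psmb10 ran from -0.046 (without WT replicate 3) to 0.064 (without KO replicate 1), with -0.037 without KO replicate 3. Apart from the scaling, which by construction shifts every gene, the cause was not tested.

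With the replicate number as a block, 20 members and 13 companions were called lower, as were 1171 of all 7574 tested genes. WT replicate 4 and KO replicate 1 are alone under their numbers, so this fit took the genotype difference only from libraries numbered 2 and 3. WT replicate 4, which thus did not count, was the lowest WT library in 27 of the 35 tested members. Only numbers 2 and 3 occur in both genotypes, and nothing in the labels ties them, so this is not a pairing; libraries numbered 2 deviated together with r = 0.479 across genes and those numbered 3 with r = 0.27, but WT replicate 4 and KO replicate 1, which share no number, had r = 0.431.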
